A study of Homo sapiens with 4 samples.

Results

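ARID5B, FLRT3, IL1R1, ZNF503, FGFBP1 and PRSS8 were 6 of the genes lowered most by 17β-estradiol (E2), the main estrogen, in single-cell RNA-seq of a pair of established human cell lines. The members were picked from measured values: each was among the 5 lowest log2 fold changes against 0 h in a line at 2 h or 8 h. ARID5B was picked in both lines at 2 h. FLRT3 was picked from T-47D at both of these times, IL1R1 and ZNF503 from T-47D at 8 h, and FGFBP1 and PRSS8 from Ishikawa at 8 h. These values are therefore a description, and the measurements that the choice did not use are those of the other line. The 6 genes were found by symbol among 33540 features in Ishikawa and 33538 in T-47D, of which 7885 and 7440 had a mean of at least 10 on the counts-per-million scale (CPM, UMIs of a gene scaled to the total of its pool) over the 4 time points. A UMI is a unique molecular identifier, which marks 1 captured transcript.

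Ishikawa is an endometrial adenocarcinoma line and T-47D a breast carcinoma line, and both express the estrogen receptor ESR1. Cells were kept in hormone-depleted medium for 5 days and then given 10 nM E2 for 2, 4 or 8 h, or vehicle (DMSO) as 0 h. The 4 cultures of a line carried MULTI-seq tags, DNA barcodes anchored in the membrane, and were mixed before droplet capture, giving 1 gene expression library for each line. Each line and time point was therefore 1 culture, with no replicate, so no test and no p-value is given. All intervals (95%) cover counting error only, and not differences between cultures or uneven counts among cells.

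At 0, 2, 4 and 8 h the kept cells numbered 776, 1480, 892 and 1465 in Ishikawa, and T-47D had 1525, 1207, 1341 and 553. The 8 pools held 12927799 to 33175309 UMIs, with a median of 19122 to 22576 UMIs per cell. In Ishikawa 4464 of the 9077 barcodes called to a time point lay outside the cell limits and were left out, and the lines shared 5 barcodes. Endometrial markers (PAX8, EMX2, SOX17, HOXA10) passed the minimum only in Ishikawa, and HOXA11 in neither line. GATA3, PIP, AZGP1 and SPDEF did so only in T-47D, TRPS1, also a luminal marker, did so in both, and all 5 epithelial markers did so in both. Of 8 markers of immune, endothelial and fibroblast cells, COL1A1 alone passed the minimum, in Ishikawa, at 28.9 CPM at 0 h and 19.8 CPM at 8 h, while PTPRC, CD3E, PECAM1, COL1A2 and DCN stayed below 1 CPM in every pool of both lines. The treatment registered in both lines: TGFA rose in Ishikawa from 11.2 to 42.7 CPM at 8 h, and in T-47D PGR rose from 129.5 to 355.05 CPM and GREB1 from 10.4 to 47.3 CPM. ESR1 was at 44.5 CPM at 0 h and 35.5 CPM at 8 h in Ishikawa, and T-47D had 25.8 and 39.3 CPM.

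Estrogen acts through nuclear receptors that bind DNA, mostly at enhancers far from promoters, and recruit coactivators or corepressors. Lowered genes are a large part of the response in breast and endometrial cells, and they have been tied to loss of coactivators from other enhancers, to corepressors and to proteins made early in the response. The members have different roles. ARID5B is a DNA-binding protein with an AT-rich interaction domain that works with a histone demethylase. ZNF503 is a zinc finger protein that represses transcription. IL1R1 is the signaling receptor for interleukin-1, and FLRT3 is a leucine-rich repeat membrane protein that binds latrophilins and teneurins on other cells and also FGF receptors. FGFBP1 is a secreted carrier that frees fibroblast growth factors from the extracellular matrix. PRSS8 (prostasin) is a serine protease anchored on the surface of epithelial cells, which acts with the protease matriptase and on the epithelial sodium channel.

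The promoter windows are shown because ARID5B was picked in both lines, because FLRT3, IL1R1 and ZNF503 were picked from the same T-47D contrast, and because FGFBP1 had a late course of its own. Each window runs from 250 bases before to 50 bases after a RefSeq start (GRCh38.p14), is printed 5′ to 3′ on the strand of the gene, and carries in capitals every match to the motifs searched. The 5 genes with an entry had 10 windows, 2 for ARID5B, 1 for FLRT3, 4 for IL1R1, 2 for ZNF503 and 1 for FGFBP1. The counts of 3′ tags do not say which start was used, so 1 window per gene is printed, that with the most matches or, where equal, the first listed: for ARID5B chr10:62049107-62049406 (plus strand), for FLRT3 chr20:14337563-14337862 (minus), for IL1R1 chr2:102142496-102142795 (plus), for ZNF503 chr10:75401867-75402166 (minus) and for FGFBP1 chr4:15938691-15938990 (minus).
ARID5B: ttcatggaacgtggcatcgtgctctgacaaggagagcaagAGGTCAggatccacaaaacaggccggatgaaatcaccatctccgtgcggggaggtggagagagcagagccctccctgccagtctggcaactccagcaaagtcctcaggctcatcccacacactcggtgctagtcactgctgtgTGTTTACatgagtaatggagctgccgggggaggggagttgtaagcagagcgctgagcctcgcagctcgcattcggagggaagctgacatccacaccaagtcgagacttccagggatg
FLRT3: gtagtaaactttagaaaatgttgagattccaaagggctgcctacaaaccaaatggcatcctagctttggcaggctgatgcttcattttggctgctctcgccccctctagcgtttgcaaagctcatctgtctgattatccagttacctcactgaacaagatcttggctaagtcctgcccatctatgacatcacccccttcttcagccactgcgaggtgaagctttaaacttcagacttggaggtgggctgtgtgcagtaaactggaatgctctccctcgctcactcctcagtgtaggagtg
IL1R1: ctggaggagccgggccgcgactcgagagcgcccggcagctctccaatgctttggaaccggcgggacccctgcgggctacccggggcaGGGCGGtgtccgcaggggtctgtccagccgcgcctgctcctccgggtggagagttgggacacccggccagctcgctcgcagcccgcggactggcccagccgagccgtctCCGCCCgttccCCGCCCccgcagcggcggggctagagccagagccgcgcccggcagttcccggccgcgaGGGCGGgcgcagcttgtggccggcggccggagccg
ZNF503: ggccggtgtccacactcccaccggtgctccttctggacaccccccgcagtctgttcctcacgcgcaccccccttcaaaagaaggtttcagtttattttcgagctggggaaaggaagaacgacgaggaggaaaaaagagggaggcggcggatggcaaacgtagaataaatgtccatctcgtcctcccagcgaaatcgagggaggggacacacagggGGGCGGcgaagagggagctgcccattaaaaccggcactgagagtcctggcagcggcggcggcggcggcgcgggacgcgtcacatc
FGFBP1: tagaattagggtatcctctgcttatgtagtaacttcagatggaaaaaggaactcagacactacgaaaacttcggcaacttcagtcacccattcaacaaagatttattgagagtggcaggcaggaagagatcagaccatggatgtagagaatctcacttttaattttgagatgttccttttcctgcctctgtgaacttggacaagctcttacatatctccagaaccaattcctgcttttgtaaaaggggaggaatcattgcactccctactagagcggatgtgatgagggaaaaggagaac

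The motifs were searched on both strands, and the share of all 35116 RefSeq windows that hold each is given beside it. The full palindromic estrogen response element, GGTCANNNTGACC, is in 0.0570% of windows and in none of the 10. A single arm of that element, AGGTCA, is in 13.8% of windows and was found once, in the printed ARID5B window at position -210 from the start. The same window held the forkhead motif TGTTTAC (3.42% of windows) at position -67. GC boxes (GGGCGG, 45.0% of windows) were found 4 times in the printed IL1R1 window and once in another of IL1R1. Both windows of ZNF503 overlap and hold the same GC box. The printed windows of FLRT3 and FGFBP1 held no motif searched. The AP-1 motif TGANTCA (7.71%) and the E-box CACGTG (7.26%) were in none of the 10, and TATAAA (11.5%) was found only in the windows of ARID5B and IL1R1 that are not printed. A match is a description of the letters and not a bound site, and enhancers were not searched.

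In the GRCh38.p14 annotation ARID5B lies at chr10:61901699-62096944, FLRT3 at chr20:14322985-14337612, IL1R1 at chr2:102070390-102179874, ZNF503 at chr10:75279725-75401916, FGFBP1 at chr4:15935577-15938740 and PRSS8 at chr16:31131433-31135727. Other genes whose spans lie within 100 kb and that passed the minimum numbered 13 in Ishikawa and 9 in T-47D, and none was 1.5-fold lower at any time in its line. KAT8, whose span ends 39 bases from that of PRSS8, was at 24.9, 22.7, 22.8 and 22.4 CPM in Ishikawa. The span of FLRT3 lies inside that of MACROD2, which was at 6.60 CPM at 0 h and 6.39 CPM at 8 h in Ishikawa, and T-47D had 3.01 and 3.33 CPM. The exception in the other direction was IL1R2, 41845 bases from IL1R1, which was higher in Ishikawa.

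Over all genes, 52, 49 and 37 of the 7885 in Ishikawa (0.659%, 0.621% and 0.469%) were at least 1.5-fold lower at 2, 4 and 8 h. All log2 fold changes were taken after 1 was added to each CPM, so those of genes with few UMIs are understated. In T-47D 31, 27 and 54 of 7440 (0.417%, 0.363% and 0.726%) were as low. At any of the 3 times it was 102 genes in Ishikawa (1.29%) and 73 in T-47D (0.981%). Genes at least 1.5-fold higher, for comparison with the lists given later, were 0.786%, 0.634% and 0.812% in Ishikawa, and T-47D had 1.22%, 1.33% and 2.34%. Of the 6404 genes past the minimum in both lines, 9 were lower in both at 2 h (0.141%), 1 at 4 h (0.0156%) and 2 at 8 h (0.0312%). Of the members, 1, 1 and 3 were past this limit in Ishikawa, and T-47D had 4, 3 and 4. The members were picked from these contrasts, so these counts follow from the choice and nothing is read from them. The 8 h differences between lines given below include the value by which the member was picked, which the choice tends to make low, and are a description. FLRT3 in Ishikawa and FGFBP1 in T-47D were under the minimum and could not be counted. FLRT3 in T-47D passed the minimum through its 0 h pool, being under 10 CPM in every later pool, and ZNF503 in T-47D also did, since its later pools average under 10 CPM. The lowest values that bounded the choice were close together: in T-47D at 8 h ZNF503 was at -1.18 and the next gene, ANGPTL4, at -1.16. In Ishikawa at 8 h PRSS8 was at -1.0 and KRT5, the next, at -0.94.

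**Figure D1:**
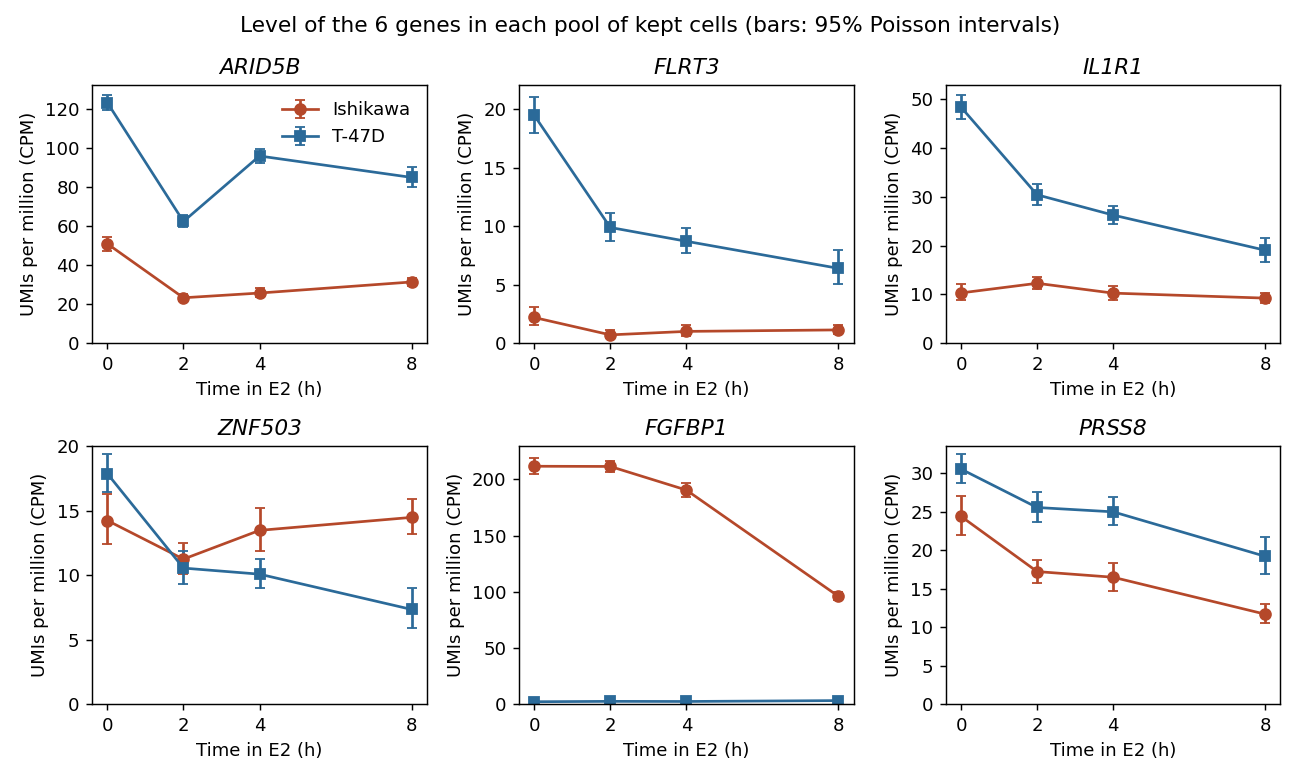
Level of each gene in CPM (vertical axis from 0) against hours in E2 for Ishikawa (circles) and T-47D (squares), 1 pool of cells per point with its 95% Poisson interval. ARID5B dips at 2 h in both lines, FLRT3, IL1R1 and ZNF503 descend in T-47D, FGFBP1 drops only between 4 and 8 h in Ishikawa, and PRSS8 descends in both.

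ARID5B was lower in both lines at every time after 0 h, and its lowest value was at 2 h. It was picked by its 2 h values, which the choice tends to make low, and this also favours a rise after 2 h. In Ishikawa it was at 51.0 CPM (47.5 to 54.7) before E2, 23.4 (21.7 to 25.2) at 2 h, 25.8 (23.6 to 28.2) at 4 h and 31.5 (29.5 to 33.5) at 8 h. In T-47D it was at 123.3 CPM (119.5 to 127.1), 62.5 (59.5 to 65.5), 96.0 (92.5 to 99.6) and 85.0 (80.1 to 90.2). The ratio to 0 h at 2 h was 0.459 (0.414 to 0.509) in Ishikawa and 0.507 (0.478 to 0.537) in T-47D.

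The return of ARID5B toward its 0 h level had a different course in each line. In T-47D the level rose from 2 to 4 h by a ratio of 1.54 (1.45 to 1.63) and was lower again at 8 h, by a ratio of 0.886 (0.825 to 0.95). In Ishikawa the step from 2 to 4 h was 1.10 (0.982 to 1.24) and that from 4 to 8 h was 1.22 (1.09 to 1.36). At 4 h the log2 ratio to 0 h was -0.98 in Ishikawa and -0.36 in T-47D, a difference of -0.62 (-0.80 to -0.45). Neither line was back at 0 h values by 8 h, with ratios of 0.617 (0.561 to 0.679) and 0.690 (0.645 to 0.737). Ordered by level, all 4 T-47D pools stood above all 4 Ishikawa pools, and only the lowest neighbours in the order, Ishikawa at 4 and 2 h, did not differ beyond counting error.

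No other gene of the ARID family moved this way past the fold limit. Of 15 family genes 10 passed the minimum in each line, and of the 9 besides ARID5B none was 1.5-fold lower or higher at any time in either line. The median log2 fold change of the list at 2 h was -0.17 in Ishikawa, beside -0.01 over all genes, and -0.07 in T-47D, beside 0.01. At 8 h the highest members were KDM5C in Ishikawa (0.08) and ARID2 in T-47D (0.46), and ARID5B was the lowest in both.

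ZNF503 was lower in T-47D and showed no matching change in Ishikawa. In T-47D it was at 17.9 CPM (16.5 to 19.4) at 0 h, 10.6 (9.36 to 11.9) at 2 h, 10.1 (8.97 to 11.3) at 4 h and 7.35 (5.95 to 8.98) at 8 h. In Ishikawa it was at 14.2 CPM (12.4 to 16.3), 11.3 (10.1 to 12.5), 13.5 (11.9 to 15.2) and 14.5 (13.2 to 15.9). Ishikawa was thus lower at 2 h, with a ratio of 0.790 (0.664 to 0.941), and at 1.02 (0.863 to 1.2) at 8 h. The 8 h ratio in T-47D was 0.411 (0.327 to 0.511), and the log2 ratios of the lines differed by 1.31 (0.92 to 1.70). At 0 h T-47D held the highest level of the 8 pools and at 8 h the lowest.

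ZNF703, the close relative of ZNF503 in the NET family of zinc finger repressors, went the other way in T-47D. It was at 12.9, 28.5, 24.5 and 25.3 CPM at 0, 2, 4 and 8 h, a log2 fold change of 1.08 at 2 h and 0.92 at 8 h, and was the highest gene at 8 h in its list. In Ishikawa ZNF703 was at 26.1, 27.7, 23.7 and 24.1 CPM. The list of NET proteins and corepressors had 14 genes, 12 past the minimum in each line. Besides ZNF503, 2 of 11 were 1.5-fold higher at 2 h in each line and none was lower at any time; the list median at 8 h was -0.06 in T-47D and 0.01 in Ishikawa, beside 0.01 and 0.00 over all genes. AES, a corepressor of the Groucho family, was the lowest at 8 h in Ishikawa (-0.20).

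IL1R1 was lowered in T-47D in 3 steps, while in Ishikawa 1 step, from 2 to 4 h, had an interval below 1, with a ratio of 0.836 (0.700 to 0.997). T-47D was at 48.2 CPM (45.9 to 50.7) at 0 h, 30.3 (28.3 to 32.5) at 2 h, 26.2 (24.4 to 28.1) at 4 h and 19.0 (16.7 to 21.6) at 8 h. Ishikawa was at 10.3 CPM (8.78 to 12.1), 12.3 (11.1 to 13.6), 10.3 (8.90 to 11.8) and 9.26 (8.22 to 10.4). Each step in T-47D had an interval below 1, with ratios of 0.629 (0.577 to 0.685), 0.864 (0.781 to 0.954) and 0.726 (0.627 to 0.839). The 8 h ratio to 0 h was 0.395 (0.344 to 0.452) in T-47D and 0.897 (0.736 to 1.10) in Ishikawa, and the log2 ratios differed by 1.18 (0.84 to 1.53). Even at 8 h the T-47D level stood above the 4 Ishikawa pools, whose neighbours in the order did not differ beyond counting error.

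No other gene of the interleukin-1 receptor pathway that passed the minimum was past the fold limit in T-47D, while the decoy receptor IL1R2, which binds interleukin-1 without signaling, was higher in Ishikawa. IL1R2 was at 28.2, 44.5, 59.6 and 62.7 CPM in Ishikawa, a log2 fold change of 1.13 at 8 h, and under 1 CPM in every T-47D pool. The ligand genes IL1A and IL1B and the antagonist IL1RN were below 1 CPM in every pool of both lines. Of 23 pathway genes 11 passed the minimum in Ishikawa and 14 in T-47D. Of the 13 in T-47D besides IL1R1 none was past the limit in either direction at any time, and the list median at 8 h was -0.10 beside 0.01 over all genes; of the 10 in Ishikawa IL1R2 alone was past it. IRAK1 was the highest at 8 h in T-47D (0.35) and SIGIRR the lowest in Ishikawa (-0.15).

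Among 19 target genes of NF-κB, the factor that interleukin-1 activates, few were measured. In Ishikawa 3 passed the minimum and in T-47D 4 did, and at each time 1 was past the limit in each line. It was IER3, an immediate-early gene, in opposite directions: at 24.0, 7.43, 7.39 and 8.61 CPM in Ishikawa and at 123.4, 299.4, 241.3 and 262.2 CPM in T-47D. In Ishikawa IER3 passed the minimum through its 0 h pool, being under 10 CPM later. TNIP1, an inhibitor of NF-κB signaling, had an 8 h log2 fold change of -0.21 in Ishikawa and -0.31 in T-47D. NFKBIA, the main inhibitor, was at 39.8 CPM at 0 h and 32.9 CPM at 8 h in Ishikawa, and T-47D had 72.6 and 61.1 CPM.

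FLRT3 had the largest 8 h fall of the members in T-47D. It was at 19.5 CPM (18.0 to 21.1) at 0 h, 9.91 (8.75 to 11.2) at 2 h, 8.74 (7.70 to 9.87) at 4 h and 6.42 (5.11 to 7.96) at 8 h, on 647, 263, 259 and 83 UMIs. The ratio to 0 h was 0.508 (0.439 to 0.588) at 2 h and 0.329 (0.259 to 0.414) at 8 h. The step from 2 to 4 h, 0.881 (0.739 to 1.05), held 1, and that from 4 to 8 h was 0.735 (0.567 to 0.945).

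In Ishikawa, which the choice of FLRT3 did not use, the gene was rare and was also lower after E2. It was at 2.22 CPM (1.54 to 3.1), 0.737 (0.462 to 1.12), 1.03 (0.631 to 1.60) and 1.16 (0.814 to 1.61), on 34, 22, 20 and 36 UMIs. The ratio to 0 h was 0.332 (0.185 to 0.584) at 2 h, 0.465 (0.254 to 0.831) at 4 h and 0.523 (0.318 to 0.861) at 8 h. All 3 intervals lay below 1, and the pools at 2, 4 and 8 h did not differ among themselves beyond counting error. The difference of the 8 h log2 ratios between lines was 0.67 (-0.08 to 1.42).

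No binding partner of FLRT3 that passed the minimum was past the fold limit in its direction. Of 15 genes of the list 4 passed the minimum in Ishikawa and 3 in T-47D, and besides FLRT3 none was 1.5-fold lower. TENM3, a teneurin, was higher at 8 h in T-47D, at 41.6, 42.8, 46.6 and 63.0 CPM (0.59 on the log2 scale), and was at 48.4 and 46.7 CPM at 0 and 8 h in Ishikawa. FGFR1 was at 19.1 and 15.3 CPM at 0 and 8 h in T-47D and was the lowest at 8 h in Ishikawa (-0.06), where ADGRL1, a latrophilin, was the highest (0.11). Besides FLRT3, the list median at 8 h was 0.14 in T-47D and -0.03 in Ishikawa, beside 0.01 and 0.00 over all genes. In T-47D it rests on only 2 genes of opposite direction, TENM3 (0.59) and FGFR1 (-0.30).

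FGFBP1 fell late, and only in Ishikawa, the line with a substantial level. Ishikawa was at 211.6 CPM (204.4 to 219.0) at 0 h, 211.4 (206.3 to 216.7) at 2 h, 190.5 (184.4 to 196.7) at 4 h and 96.0 (92.5 to 99.5) at 8 h. The step from 0 to 2 h was 0.999 (0.958 to 1.04), that from 2 to 4 h 0.901 (0.865 to 0.938) and that from 4 to 8 h 0.504 (0.480 to 0.529). At 4 h 13.3% of the 8 h log2 change was present. T-47D was at 2.23, 2.56, 2.46 and 3.25 CPM on 74, 68, 73 and 42 UMIs, and its 8 h ratio, 1.46 (0.973 to 2.16), held 1. The log2 ratios of the lines at 8 h differed by -1.68 (-2.23 to -1.13).

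No other gene of the FGF axis that passed the minimum was past the fold limit at 8 h. Of 21 genes of the FGF axis 10 passed the minimum in Ishikawa and 6 in T-47D. Besides FGFBP1, FGFR2 alone was past the limit, lower at 4 h in Ishikawa, at 19.8, 13.8, 11.3 and 13.6 CPM. FGF18, a ligand, was at 74.2, 53.6, 56.8 and 56.7 CPM and FGFBP3, a related carrier, at 23.8, 17.3, 18.0 and 19.3 CPM in Ishikawa, and their lower values were present at 2 h, when FGFBP1 was at its 0 h level. GPC1, a glypican, was the highest of the list at 8 h in Ishikawa (0.29). In T-47D FGFR4 was the lowest (-0.39) and FRS2 the highest (0.10). The list median at 8 h was -0.09 in Ishikawa and -0.19 in T-47D.

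PRSS8 was lower in both lines, though it was picked only in Ishikawa. Ishikawa was at 24.4 CPM (22.0 to 27.0) at 0 h, 17.2 (15.8 to 18.8) at 2 h, 16.5 (14.7 to 18.4) at 4 h and 11.7 (10.5 to 12.9) at 8 h. T-47D, which the choice did not use, was at 30.5 CPM (28.7 to 32.4), 25.5 (23.6 to 27.5), 25.0 (23.2 to 26.8) and 19.2 (16.9 to 21.7). The T-47D ratio to 0 h was 0.837 (0.758 to 0.923) at 2 h, 0.818 (0.743 to 0.90) at 4 h and 0.629 (0.545 to 0.723) at 8 h, and the 8 h value was past the 1.5-fold limit (-0.64), as were 0.726% of genes there. PRSS8 was 1 of the 2 genes past it in both lines at 8 h. Its Ishikawa value at 8 h was the one by which it was picked, so this follows in part from the choice and nothing is read from it.

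PRSS8 was lowered in its first and last steps in both lines. The steps from 0 to 2 h, 2 to 4 h and 4 to 8 h were 0.706 (0.617 to 0.809), 0.957 (0.830 to 1.10) and 0.709 (0.608 to 0.827) in Ishikawa. In T-47D they were 0.837 (0.758 to 0.923), 0.978 (0.880 to 1.09) and 0.769 (0.663 to 0.889). The middle step held 1 in both lines, and the outer steps were below 1. The log2 ratios of the lines at 8 h differed by -0.39 (-0.68 to -0.10).

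Besides PRSS8, no surface protease or protease inhibitor of the prostasin axis was past the limit. Of 15 genes 9 passed the minimum in each line. Matriptase (ST14) was at 43.3 CPM at 0 h and 47.7 CPM at 8 h in Ishikawa, and T-47D had 123.7 and 112.5 CPM. Its inhibitor SPINT1 was at 103.2 and 86.3 CPM in Ishikawa and at 266.6 and 196.6 CPM in T-47D. In T-47D every gene of the list past the minimum was below its 0 h level at 8 h, from PRSS8 to EPCAM (-0.11). The list median at 8 h was -0.25 in T-47D, beside 0.01 over all genes, and -0.01 in Ishikawa, beside 0.00.

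**Figure D2:**
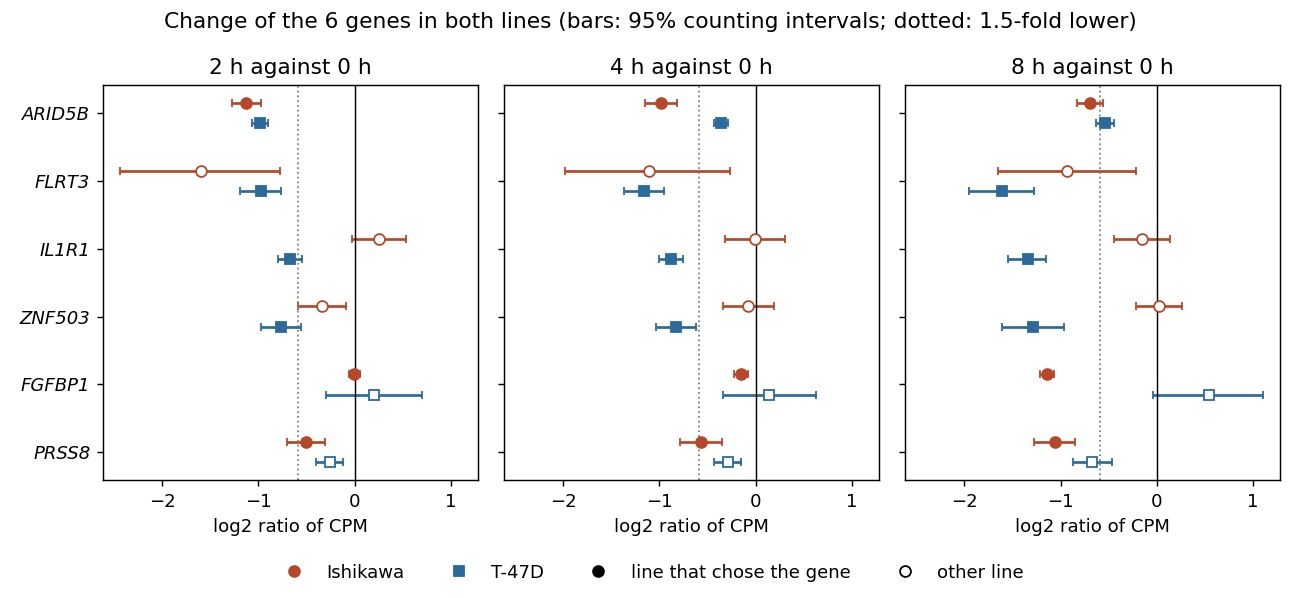
Log2 ratio of CPM to 0 h (horizontal axis) of each gene at 2, 4 and 8 h in Ishikawa (circles) and T-47D (squares), with 95% counting intervals, filled where the line chose the gene and open where it did not, and the 1.5-fold limit dotted. Of the open points, FLRT3 in Ishikawa and PRSS8 in T-47D lie below 0 with their intervals at all 3 times, while those of IL1R1 in Ishikawa and FGFBP1 in T-47D hold 0.

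A lower level can come from fewer cells with a UMI or from fewer UMIs in the cells that have any. The shares depend on depth, so each cell was also thinned to a common depth, 12539 UMIs for Ishikawa and 14495 for T-47D. Shallower cells were left out, 57 to 175 per Ishikawa pool and 34 to 194 per T-47D pool. As counted, the share of Ishikawa cells with an ARID5B UMI was 51.8% (48.2 to 55.4) at 0 h and 28.7% (26.4 to 31.1) at 2 h, and after thinning it was 41.1% and 21.0%. In T-47D the ARID5B share was 84.8% (82.9 to 86.6) and 63.0% (60.3 to 65.8) as counted, and 76.0% and 50.6% after thinning. At 2 h for ARID5B and at 8 h for the members described next, the share was lower than at 0 h on both scales.

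For most members the fall lay in the share of positive cells. IL1R1 in T-47D went from 54.5% to 29.7% of cells as counted and from 45.5% to 21.0% thinned, while thinned UMIs per positive cell went from 1.56 to 1.30, so that 81% of the log2 fall at 8 h was in the share. The same part was 79.0% for FLRT3 (thinned share 21.3% to 9.44%), 90.1% for ZNF503 (19.4% to 9.83%) and 77.1% for PRSS8 (33.7% to 23.9%) in T-47D. In Ishikawa it was 89.8% for PRSS8 at 8 h (27.7% to 12.8%) and 85.5% for ARID5B at 2 h. Positive cells of these genes held little more than 1 UMI each, a level from which UMIs per positive cell can hardly go lower.

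FGFBP1 and ARID5B in T-47D, with more UMIs per cell, were lower on both counts. The thinned share of Ishikawa cells with FGFBP1 was 65.8%, 64.4%, 62.2% and 45.8% at 0, 2, 4 and 8 h, and UMIs per positive cell were 3.98, 4.07, 3.78 and 2.65. As counted, the FGFBP1 share was 70.9%, 70.7%, 71.5% and 54.3%, so the lower share at 4 h was seen only after thinning. The share took 47% of the log2 fall at 8 h. For ARID5B in T-47D it took 60.0% at 2 h, and UMIs per positive cell went from 2.32 to 1.77.

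**Figure D3:**
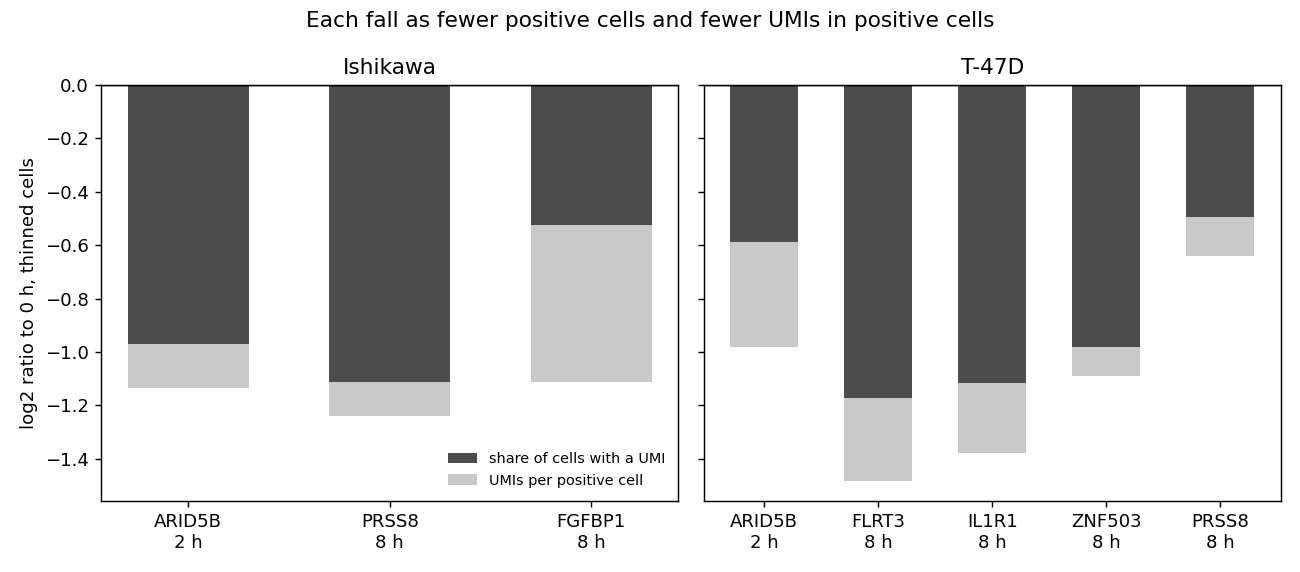
Log2 ratio to 0 h of UMIs per thinned cell (vertical axis), stacked as the part from the share of cells with a UMI (dark) and the part from UMIs per positive cell (light), at the time named under each bar. The dark part is most of each bar except for FGFBP1, where it is 47%, and is 60.0% for ARID5B in T-47D.

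Ishikawa cells were uneven in FGFBP1 before E2 and remained so. At 0 h 34.2% of thinned cells held no UMI, 35.1% held 3 or more and 5.77% held 10 or more, and the variance over the mean (Fano factor) was 4.84. At 2 h the share with 10 or more was 5.90%, at 4 h 4.55% and at 8 h 1.72%. The Fano factor was 5.40, 4.41 and 4.25 at 2, 4 and 8 h. The highest cell as counted had 47, 44, 42 and 46 UMIs at 0, 2, 4 and 8 h, so single cells with a high count were present in every pool. No other member exceeded a Fano factor of 1.72 in any pool. The counting intervals of FGFBP1 levels and ratios in Ishikawa do not cover this spread and are too narrow.

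**Figure D4:**
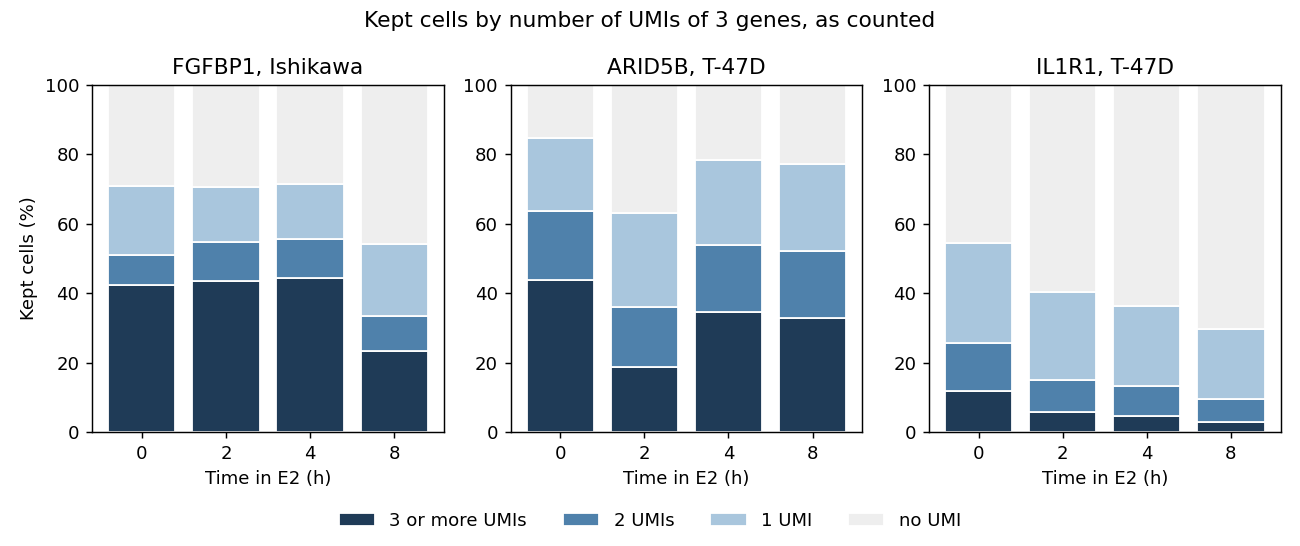
Share of kept cells (vertical axis, percent, as counted without thinning) with no, 1, 2 or 3 and more UMIs of FGFBP1 in Ishikawa and of ARID5B and IL1R1 in T-47D by hours in E2. Cells with 3 or more FGFBP1 UMIs go from 42.3% at 0 h to 23.2% at 8 h, those of ARID5B from 43.7% to 18.6% at 2 h and back to 34.7% at 4 h, and those of IL1R1 from 11.9% to 2.89% at 8 h.

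The falls by which members were picked were present in every group of cells examined in the line that picked them. Except for the cells outside the limits, the groups are parts of the kept cells that gave the choice. Falls in them therefore follow largely from the choice, and the values describe their size only. In Ishikawa 10 overlapping groups were formed by a UMI of the dividing-cell genes TOP2A or MKI67, by depth, by mitochondrial share, by the share among UMIs of GFP, a reporter listed among the features of Ishikawa, and by the cell limits, and in T-47D 7 by the same measures without GFP and limits. Detection of TOP2A and MKI67 depends on depth. GFP was a median of 0.697%, 0.514%, 0.583% and 0.548% of UMIs in kept Ishikawa cells at 0, 2, 4 and 8 h. Which construct the cells carried is not stated. At 0 h FGFBP1 was at 268 CPM in cells under 1% GFP and at 130 CPM in the others. IL1R1 and PRSS8 were also higher under 1% GFP at 0 h, while ARID5B, FLRT3 and ZNF503 were lower there. ARID5B at 2 h was past the 1.5-fold limit in all 10 groups in Ishikawa (-1.33 to -0.75) and in all 7 in T-47D (-1.14 to -0.85). FGFBP1 at 8 h (-1.28 to -0.78) and PRSS8 at 8 h (-1.20 to -0.68) were past it in all 10. In T-47D at 8 h so were FLRT3 (-1.93 to -1.04), IL1R1 (-1.43 to -1.16) and ZNF503 (-1.52 to -0.84) in all 7, and PRSS8 in 6 of 7 (-0.70 to -0.55). The ends of the ARID5B range in Ishikawa at 2 h were the groups by GFP. Its ratio was 0.386 (0.335 to 0.445) in cells under 1% GFP and 0.587 (0.504 to 0.684) in the others, intervals that do not overlap. The share of all genes without overlap in this split was not computed, and the part of GFP was not tested. The Ishikawa cells outside the limits, 1 of the 10 groups, came from the same cultures and were not among the kept cells. They gave ratios of 0.464 for ARID5B at 2 h and at 8 h of 0.481 (0.453 to 0.512) for FGFBP1 and 0.503 (0.425 to 0.595) for PRSS8. In the same cells the 8 h ratio of FLRT3 was 0.975 (0.564 to 1.71), an interval that holds 1, against 0.523 in the kept cells. For ZNF503 it was 0.741 (0.610 to 0.901), against 1.02 in the kept cells, and for IL1R1 0.776 (0.620 to 0.973), against 0.897. FLRT3 in Ishikawa was below 0 in all 10 groups at 2 h and in 9 of 10 at 4 and 8 h, where the exception was the group with the most UMIs per cell.

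Between dividing and non-dividing cells, the counting intervals of the FGFBP1 ratio in Ishikawa did not overlap at 2, 4 and 8 h. For the other genes given here they overlap. These examples were picked among the comparisons of all members, lines and times. The share of all genes without overlap in this split was not computed, so nothing is read from the lack of overlap. In Ishikawa FGFBP1 was at 241, 224.6, 202.0 and 101.8 CPM in dividing cells and at 141.4, 176.8, 154.5 and 82.0 CPM in the others. At 2 h its ratio was 0.932 (0.889 to 0.978) in dividing and 1.251 (1.14 to 1.38) in non-dividing cells, beside 0.999 in all cells. At 4 h its ratio was 0.838 (0.795 to 0.884) in dividing and 1.09 (0.981 to 1.22) in non-dividing cells. At 8 h its ratio was 0.422 (0.399 to 0.447) and 0.580 (0.521 to 0.646). These intervals do not cover the uneven counts of FGFBP1 among cells (Fano factor 4.84 at 0 h) and are too narrow. ZNF503 in T-47D at 8 h had a ratio of 0.535 (0.390 to 0.724) in dividing and 0.312 (0.219 to 0.432) in non-dividing cells. For FLRT3 in T-47D at 8 h the ratios were 0.239 (0.148 to 0.369) and 0.399 (0.299 to 0.523), and for IL1R1 in Ishikawa 1.01 (0.80 to 1.29) and 0.658 (0.452 to 0.962), in the same order. Dividing cells were 66.1%, 67.8%, 72.3% and 66.8% of the Ishikawa pools and 32.6%, 31.7%, 37.0% and 41.6% of the T-47D pools, and the part of these shares in the pooled falls was not tested.

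**Figure D5:**
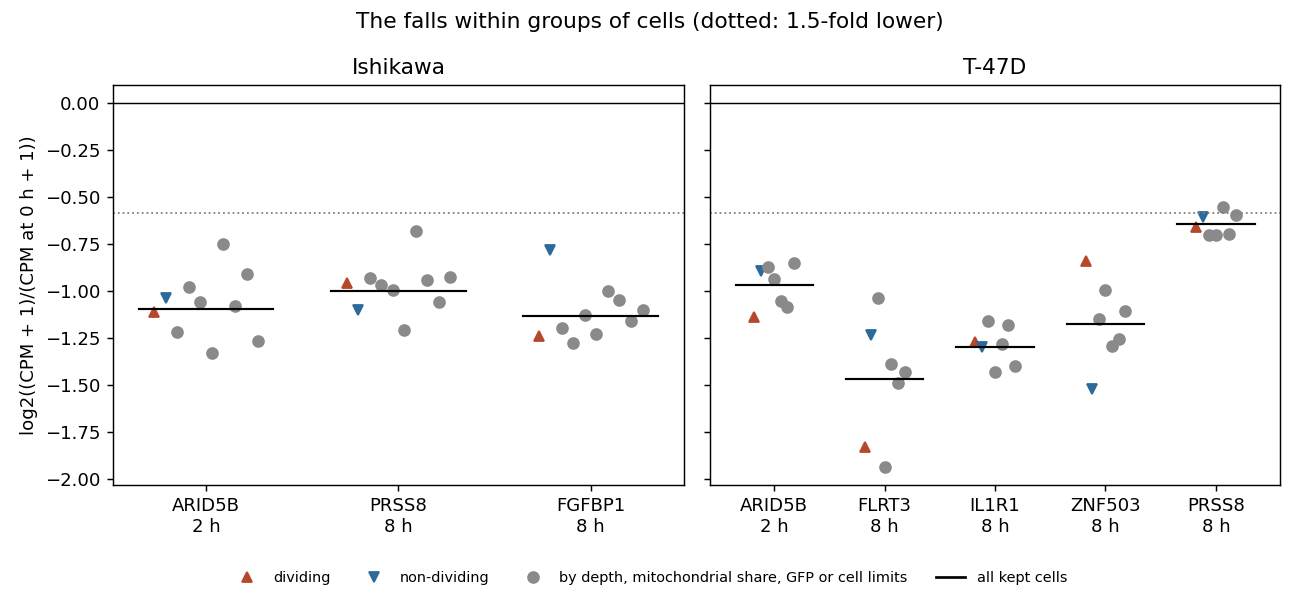
Log2 fold change against 0 h (vertical axis, with pseudocount 1) of each gene within groups of cells, dividing (up triangles), non-dividing (down triangles) and split by depth, mitochondrial share, GFP or cell limits (circles), with all kept cells as a line and the 1.5-fold limit dotted. Every point lies below 0, and of those shown only points of PRSS8 in T-47D lie above the dotted line.

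The number of cells in which 2 members were found together was set beside the product of their shares. Over pairs of members and pools in which the product of their shares gives at least 20 thinned cells, 68 in all, the number of cells with both divided by that product was 0.82 to 1.38 with a median of 0.99. In all 68 the exact Poisson interval of the number held the product. That interval is wider than the spread of such a number at fixed shares. It could therefore hardly have shown a departure of this size, and nothing is read from it. Thinned cells with none of the 6 genes were 12.1%, 16.2%, 18.0% and 26.9% of Ishikawa cells at 0, 2, 4 and 8 h, and 5.33%, 19.4%, 13.1% and 16.8% of T-47D cells. In T-47D at 8 h, cells with a UMI of PGR, a gene raised by E2, held ARID5B in 60.7% (56.2 to 65.1) and the 33 cells without it in 78.8% (61.1 to 91.0); at 0 h the shares were 77.9% (75.2 to 80.5) and 70.3% (65.2 to 75.1). At 2 h they were 49.6% (46.3 to 52.8) and 57.4% (48.6 to 65.8). IL1R1 at 2 h went the other way, in 31.1% (28.1 to 34.1) of cells with PGR and 19.1% (12.9 to 26.7) of those without. In Ishikawa at 8 h, FGFBP1 was in 47.5% (43.0 to 52.1) of cells with a UMI of TGFA and in 44.8% (41.4 to 48.2) of those without. Over the 6 members and 4 time points of both lines, the intervals with and without the raised gene did not overlap in 2 cases. They were ARID5B at 0 h and IL1R1 at 2 h in T-47D. The share of all genes without overlap was not computed, so nothing is read from these cases.

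The genes whose courses were closest to each member, by the root mean square difference of log2 fold changes, were searched only where it was picked. Their division by line is therefore fixed by the search. The closeness of FLRT3, IL1R1 and ZNF503 follows in part from their choice in the same contrast. For ARID5B, over 6 values in both lines, they were AP001816.1 (0.22), NR2F1 (0.25), an orphan nuclear receptor, and PLK2 (0.26), a kinase. In T-47D, over 3 values, IL1R1 and ZNF503 were among the 3 closest of each other (0.09), both were among those of FLRT3 (0.22 and 0.27), FLRT3 was among those of neither, and DDIT4, a stress-induced inhibitor of mTOR signaling, was among the 3 closest to all of them at -0.56, -0.78 and -1.22. ANGPTL4 was close to IL1R1 (0.18) and SPRY1, an inhibitor of receptor tyrosine kinase signaling, to ZNF503 (0.14). In Ishikawa FGFBP1 was closest to CRYAB (0.18), a small heat-shock protein, at -0.06, 0.13 and -1.26, then to KRT5 (0.21) and AGR2 (0.25). PRSS8 was closest to CDKN1C (0.12), a cell cycle inhibitor, at -0.46, -0.67 and -0.84, then to TMEM139 (0.16) and LOX (0.17), a collagen cross-linking enzyme.

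Each library held 1 cell line, so no cell type without these genes was at hand to gauge UMIs from free RNA, and its part in the low counts of FLRT3 in Ishikawa and FGFBP1 in T-47D was not tested.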

How the data were processed

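Per the labels and the study's methods, Ishikawa and T-47D cells were profiled with 10x droplets and MULTI-seq tags, and the authors made the deposited matrices of UMI counts per gene and barcode with Cell Ranger 3.1.0. The submitters' processing notes name hg38. The authors' tag calls gave each barcode its time point or a doublet call. Barcodes with 1 call were kept within the study's limits, for Ishikawa 8500 to 35000 UMIs, 2700 to 6000 genes and a mitochondrial share below 7%, and for T-47D the UMI limits were 7500 and 40000, the gene limits 1500 and 6000 and the mitochondrial limit 20%. Tag doublets (1906 and 1442) were left out, and no other doublet caller was run. The tag libraries were not used here.

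Counts were summed per line and time point and scaled to the pool total (CPM). Folds used a pseudocount of 1, and the limit was 1.5-fold with a mean of at least 10 CPM. Intervals (95%) are exact Poisson for CPM, Clopper-Pearson for shares and exact conditional binomial for ratios, without pseudocount. Intervals of differences between lines use the normal approximation on the log2 ratio. Cells were thinned to the 10th percentile of UMIs of a line. The fold rule and the ratio intervals at 8 h were tested on simulated Poisson pools with known changes. These pools had no uneven counts among cells, and thinning, shares and groups of cells were not tested in this way. The members and lists were chosen with earlier results of these data known. Named genes were the members, the 3 closest genes to each, the lowest and highest gene of each list at 8 h, and ESR1, PGR, GREB1 and TGFA. Other genes (KAT8, MACROD2, FGF18, FGFBP3, FGFR2, NFKBIA, ST14, SPINT1 and the genes at the edge of the choice) were named after their values were seen. A few genes that these rules would name are not reported here. GFP and tdTomato features were left out of the genes counted. RefSeq windows and positions (GRCh38.p14) were matched by symbol, 5 of 6 members for windows. Python 3.11.15, numpy 2.4.6, scipy 1.17.1, pandas 2.3.3 and, for TMM factors, edgeR 4.0.16 in R 4.3.3 were used.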

Additional observations from a re-analysis of the deposited data

How the results depend on the processing

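The 36 fold changes of the members were recomputed under 342 alternative values: TMM or median-of-ratios scaling, totals without mitochondrial and reporter genes, every called cell, a lower UMI limit, a pseudocount of 5, thinned cells, the mean over cells, cells under 1% GFP and non-dividing cells. No fold past the 1.5-fold limit changed sign, and 16 of the 342 moved by more than their counting interval. FGFBP1 in Ishikawa at 8 h lay between -1.23 and -0.78, PRSS8 in T-47D at 8 h between -0.66 and -0.55, and IL1R1 in Ishikawa at 2 h between -0.10 and 0.27. The number of members past the limit depended on the limits. In Ishikawa it was 1 at 2 h and became 2 with no minimum, in thinned cells, under 1% GFP and with a lower fold limit, and 0 with a minimum of 50 CPM. At 4 h it was 1 and became 2 under the same 4 settings and in non-dividing cells, and 0 with a minimum of 50 CPM or a fold of 2. At 8 h it was 3 and became 1 with a minimum of 50 CPM and 2 in non-dividing cells and with a fold of 2. In T-47D a minimum of 50 CPM gave 1, 0 and 0 at 2, 4 and 8 h in place of 4, 3 and 4, and a fold of 2 gave 0, 1 and 3. A pseudocount of 5 gave 3 at 2 and 8 h, and the lower fold limit gave 4 at 4 h and 5 at 8 h. Of 96 alternative shares of cells with a UMI, 64 moved, since shares depend on depth. No paired analysis was possible because each line and time point was 1 culture, and for the same reason no culture could be left out. Counting error limits FLRT3 in Ishikawa (20 to 36 UMIs a pool) and FGFBP1 in T-47D (42 to 74 UMIs a pool).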
